A study of Mus musculus with 4 samples.

Results

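Fibroblasts of the brain coverings and vessels formed a small group of 91 cells among the 17623 cells that passed the filters in 4 single-cell libraries of the mouse telencephalon at postnatal day 5. The members were chosen by their own UMI counts (a UMI is a tag carried by 1 captured transcript molecule): at least 3 UMIs of *Dcn* and *Lum* together, at least 5 UMIs of *Col1a1* and *Col1a2* together and fewer than 5 UMIs of *Cldn5*, which marks endothelial cells. The controls were NestinCreERT2/tdTomato/Chd8+/+ mice and the mutants NestinCreERT2/tdTomato/Chd8+/F mice, all on the C57BL/6 background, with 2 libraries per genotype and a pool of mice in each library. Both genotypes received tamoxifen in utero at the midfetal stage, which activates the Nestin-driven Cre recombinase, switches on the tdTomato reporter in recombined cells and, in the mutants alone, removes loxP-flanked exons from 1 *Chd8* allele. The cells had been sorted for tdTomato. The files held no row for tdTomato or Cre, so the reporter could not be checked in the fibroblasts. Differences between single mice are hidden by the pooling. Libraries were the replicates in every test of genotype, with 2 per genotype, or fewer where a library was left out.

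Control replicates 1 and 2 gave 31 and 18 fibroblasts, and mutant replicates 1 and 2 gave 19 and 23. These held 525322, 210739, 393339 and 321854 UMIs in this order, with a median of 15081 UMIs per cell over all members. According to the matrix headers, Cell Ranger 7.0.0 had counted replicate 1 of each genotype, and Cell Ranger 5.0.1 had counted replicate 2. *Xist*, the RNA that silences 1 X chromosome in female cells, was found in all 18 fibroblasts of control replicate 2 and all 23 of mutant replicate 2, and in 0 of the 50 fibroblasts of replicate 1. UMIs of the Y-linked genes *Ddx3y*, *Eif2s3y*, *Kdm5d* and *Uty* were found in 47 fibroblasts, all of replicate 1, and no fibroblast held both. Replicate 1 therefore differed from replicate 2 in software version and in sex-linked transcripts, and each genotype had 1 library of each kind. The paper states that the single-cell samples came from male mice and names Cell Ranger 7.0.0. Replicate 2 matched neither statement. The libraries shared between 8 and 21 barcodes per pair, and no fibroblast barcode was shared.

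Fibroblasts make the collagenous sheets of the meninges, which lie in 3 layers around the brain: the pia on its surface, the arachnoid above it and the dura below the skull. Pial and arachnoid fibroblasts form the leptomeninges, and similar cells line the larger vessels as these enter the brain. They deposit the basement membrane on which the glial endfeet rest, release retinoic acid and chemokines that act on the developing cortex, and carry solute transporters that move organic anions and amino acids between the cerebrospinal fluid and the tissue. Meningeal and perivascular fibroblasts were not separated here.

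Most members lay far inside the gate. The median was 32.0 UMIs for *Dcn* and *Lum* together and 63.0 UMIs for both type I collagen genes together. Of the 91 members, 1 held 3 to 5 UMIs of *Dcn* and *Lum*, and 1 held 5 to 9 UMIs of type I collagen. Just outside, 8 cells had enough collagen but only 1 or 2 UMIs of *Dcn* and *Lum*, 19 cells had enough *Dcn* and *Lum* but fewer than 5 collagen UMIs (9 of these held 3 or more UMIs of the mural genes *Rgs5*, *Kcnj8* and *Abcc9*), and 1 cell met both limits but carried *Cldn5*. A further 21 barcodes met the gate but failed the filters on depth or mitochondrial counts, of which 14 exceeded 10% mitochondrial UMIs.

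All 18 fibroblast markers that the rule did not use were found at 20 counts per 1e6 UMIs (CPM) or more in every library. *Col3a1*, a fibrillar collagen chain, stood at 2378, 3801, 1881 and 2094 CPM in control replicates 1 and 2 and mutant replicates 1 and 2. *Pdgfra*, a receptor of mesenchymal cells for platelet-derived growth factor, stood at 188, 413, 165 and 258 CPM in the same order. Control replicate 2 was the highest for both genes, and the other libraries lay closer together. Not every marker was particular to fibroblasts. *Pdgfra* stood at 126, 273, 226 and 252 CPM in all other cells of the same libraries, and 10 of the 18 markers also reached 20 CPM in every library of mural cells. *Pdgfrb* was higher in mural cells (776 against 158 CPM in the summed cells), as was *Vim* (1356 against 1102 CPM), and *Fn1* was higher in endothelial cells (973 against 664 CPM). *Nid1* was higher in the summed mural cells (634 against 448 CPM) and in those of both mutant libraries (439 and 729 against 290 and 516 CPM). In both control libraries it was higher in fibroblasts (371 and 830 CPM) than in mural cells (226 and 733 CPM). *Col3a1* stood at 401 CPM in mural and 8.61 CPM in endothelial cells, against 2387 CPM in fibroblasts. UMIs here mark mainly 3′ ends, 1 per molecule, and levels were not divided by transcript length. The software version of replicate 1 also counts intronic reads by default.

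The genes that stood highest over all other cells of the series were matrix, transport and retinoic acid genes. Of the 455 genes at 200 CPM or more in every library and found in at least 50% of members, the leading gene outside the rule was *Slc22a6*, an organic anion transporter (chr19:8618039-8628299, mm10), at 311 CPM in the summed fibroblasts against 0.0898 CPM in all other cells. *Aldh1a2*, which makes retinoic acid (chr9:71215789-71296243), stood at 371 CPM against 0.139 CPM. *Slc6a13*, a carrier of GABA and taurine (chr6:121300227-121337733), stood at 627 CPM against 0.292 CPM. They were followed by the collagen chain *Col6a1*, the prostaglandin D synthase *Ptgds*, the chemokine *Cxcl12*, *Col3a1*, the proteoglycan *Ogn*, the imprinted genes *H19* and *Igf2*, and the BMP ligand *Bmp6*. *Dcn* itself (chr10:97479609-97518143) was at 2575 CPM against 1.35 CPM, and *Lum* (chr10:97565128-97572703) at 320 CPM against 0.117 CPM, as the rule required. These ratios compare chosen cells with the rest and carry no test.

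In inhibitory neurons, which should lack these genes, UMIs of most of them were rare. The neuron gate set no limit on fibroblast genes, and 2 of its 3575 cells were fibroblast members, 1 in control and 1 in mutant replicate 1. *Dcn* had a UMI in 100% of fibroblasts and in 0.308% of the 3575 inhibitory neurons (exact 95% interval 0.154% to 0.550%), whose median depth was 8040 UMIs. Without the 2 shared cells the share was 0.252% (0.115% to 0.478%). *Slc6a13* had a UMI in 72.5% of fibroblasts and 0.0559% of inhibitory neurons, and *Aldh1a2* in 71.4% and 0.112%. *Ptgds* and *Pdgfra* were more widespread. *Ptgds* had a UMI in 46 of 91 fibroblasts and in 8.59% of inhibitory neurons, and *Pdgfra* in 74 of 91 fibroblasts and in 9.65% of inhibitory neurons. All intervals given with shares were computed by the exact Clopper-Pearson method at 95% and hold for counting error alone.

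**Figure D1:**
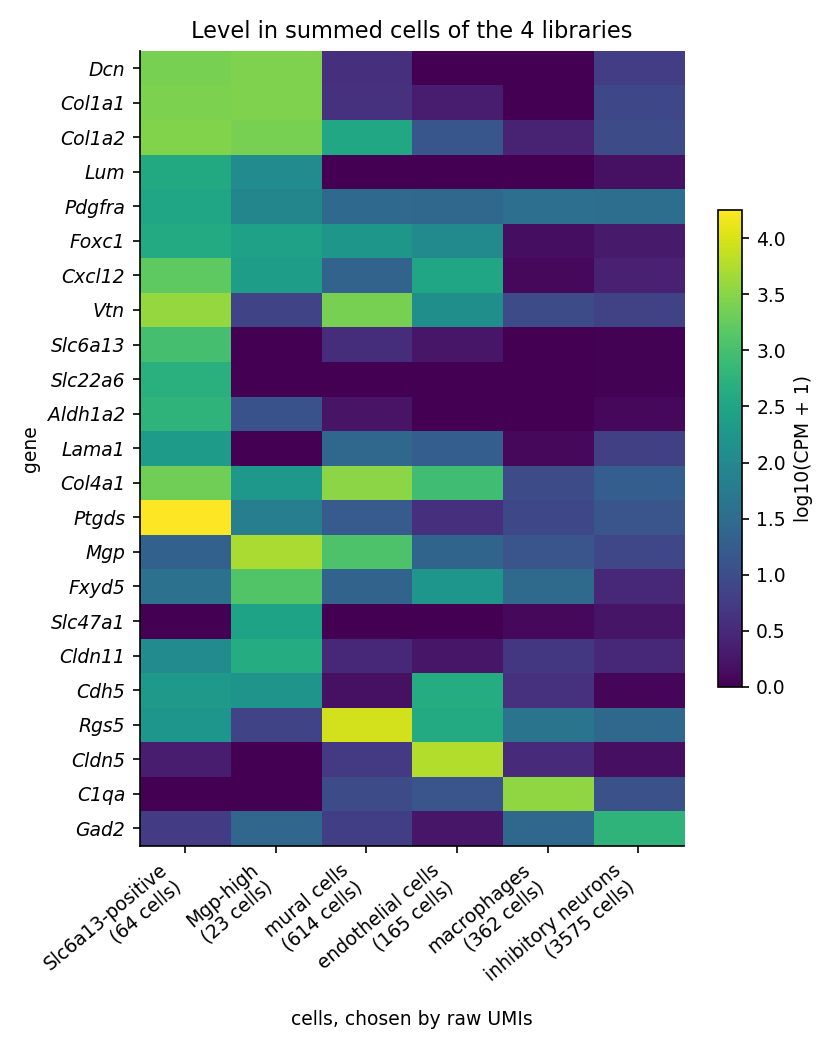
Level of 23 genes, as log10(CPM + 1) of UMIs summed over the 4 libraries, in the Slc6a13-positive and Mgp-high fibroblasts and in 4 other groups of cells chosen by raw UMIs. *Dcn* and *Col1a1* are bright in both fibroblast columns alone, *Vtn* is shared by Slc6a13-positive fibroblasts and mural cells, and *Cdh5* by both fibroblast columns and endothelial cells.

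Markers of other cells were mostly at or near 0, with 3 exceptions. *C1qa* and *Csf1r* of macrophages were at 0 in all fibroblasts. The list of 13 macrophage and microglial markers summed to 1.90, 47.5, 5.08 and 3.11 CPM in control replicates 1 and 2 and mutant replicates 1 and 2, with 6 genes at 0 and *Pf4* the most abundant. The list of 9 neuronal markers summed to 91.4, 23.7, 142 and 18.6 CPM, with *Stmn2* the most abundant over the summed libraries but at 0 in mutant replicate 2. Single cells carried much of it: the highest fibroblast held 27 of 48 such UMIs in control replicate 1 and 47 of 56 in mutant replicate 1. The 2 fibroblasts with the most UMIs of the defining neuronal markers (16 and 32) were both Mgp-high cells, as defined below, and the first also held 16 UMIs of oligodendrocyte lineage markers. The 7 oligodendrocyte lineage markers summed to 70.4, 71.2, 43.2 and 74.6 CPM, led over the summed libraries by *Olig1*, which was at 0 in control replicate 2. The 5 choroid plexus and ependymal markers summed to 47.6, 71.2, 25.4 and 12.4 CPM, led by *Kl*, with *Foxj1* and *Ccdc153* at 0. The 5 neural stem cell markers summed to 105, 119, 20.3 and 83.9 CPM, most of it from *Nes*.

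The first exception was *Cdh5*, which encodes the adhesion molecule VE-cadherin and is best known from endothelium. The 10 endothelial markers summed to 242, 280, 224 and 155 CPM, of which *Cdh5* alone gave 188, 237, 193 and 121 CPM. *Cdh5* had a UMI in 77 of the 91 fibroblasts, while *Cldn5* had 1 UMI in 1 cell and *Pecam1* 5 UMIs in all. Of the 44 fibroblasts with 3 or more UMIs of *Pecam1*, *Cldn5*, *Flt1* and *Cdh5*, 3 remained without *Cdh5*. In endothelial cells chosen by *Cldn5*, *Cdh5* stood at 711, 467, 428 and 354 CPM. The part of endothelial RNA in the *Cdh5* level was not tested further.

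The second exception was *Vtn*, the gene of the adhesive protein vitronectin, which was listed here among mural markers. *Vtn* stood at 2357, 3355, 1220 and 2949 CPM in the fibroblasts and at 798, 2220, 1641 and 3161 CPM in mural cells. The defining mural gene *Rgs5*, a regulator of G protein signalling in pericytes, stood at 53.3, 726, 2.54 and 9.32 CPM. In control replicate 1 all 28 of its UMIs came from 1 fibroblast, and in control replicate 2, 151 of its 153 UMIs came from 1. The first of these cells belonged to neither set described below and held 3 *Dcn* and no *Col1a2* UMIs. Of the 12 mural markers, 2 reached 20 CPM in every library.

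The third exception was the astrocyte list, whose 7 genes summed to 2252, 2021, 2184 and 1631 CPM. The most abundant was *Gja1*, a gap junction gene that is also known from meningeal cells, at 946, 1068, 1698 and 1091 CPM, followed by the glutamate carrier *Slc1a3* at 790, 835, 473 and 485 CPM. *Gja1* had a UMI in 62 of 64 and 23 of 23 cells of the sets described next, and 5 of 91 fibroblasts held 3 or more UMIs of the defining astrocyte markers.

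Few fibroblasts held both *Slc6a13* and *Mgp*, which encodes matrix Gla protein, an inhibitor of calcification. The sets drawn from these genes exclude each other by definition. 64 cells held *Slc6a13* and fewer than 10 UMIs of *Mgp*, and are called Slc6a13-positive here. 23 cells held 10 or more UMIs of *Mgp* (chr6:136872435-136875823) and no *Slc6a13*, and are called Mgp-high. The remaining 4 cells met neither definition, and 2 of them carried both genes. The split was drawn after the cells had been seen, so differences between the sets are descriptions and have no test. Within the Slc6a13-positive cells, *Slc6a13* ranged from 1 to 47 UMIs with a median of 10.5, and 58 cells had 0 *Mgp* UMIs. Within the Mgp-high cells, *Mgp* ranged from 15 to 235 UMIs with a median of 101. None of the 23 Mgp-high cells had *Slc22a6* or the pial laminin gene *Lama1*, against 58 and 50 of the 64 Slc6a13-positive cells, and 2 had *Aldh1a2* against 60. *Slc47a1*, a carrier that exports organic cations, was found in 20 of 23 Mgp-high cells and in 0 of 64 Slc6a13-positive cells.

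**Figure D2:**
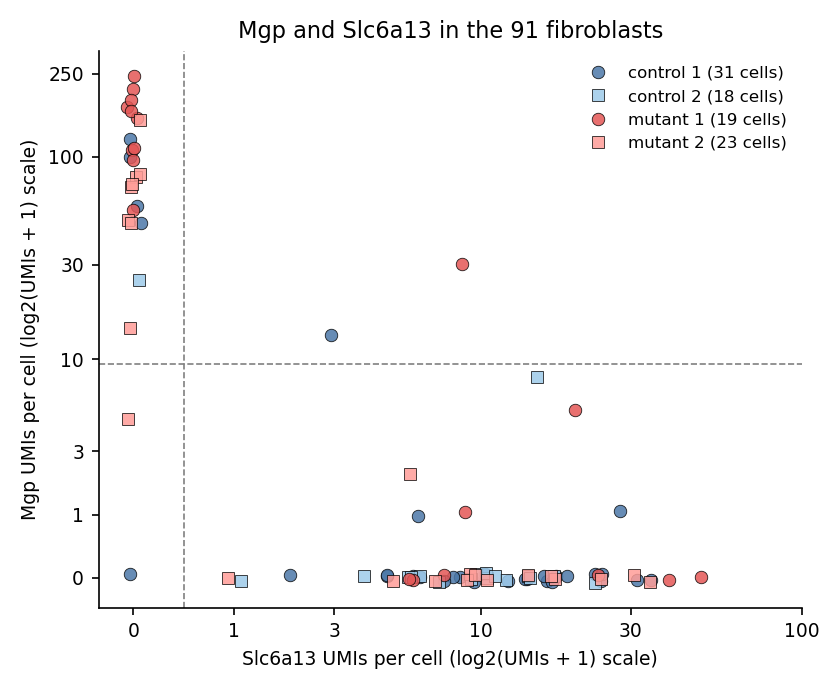
*Slc6a13* UMIs (horizontal) against *Mgp* UMIs (vertical) in each of the 91 fibroblasts, both on a log2(UMIs + 1) scale with a small sideways jitter, by library. Dashed lines show the limits of the sets; cells line the axes, and 23 Mgp-high cells stand in the upper left, 10 of them from mutant replicate 1 and 8 from mutant replicate 2.

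The layer lists split along the same line, although neither set followed 1 layer alone. Of the 6 pial genes, 5 exceeded 50 CPM in a set and all 5 were at least 2-fold higher in Slc6a13-positive cells: *S100a6*, *Lama1*, *Lama2*, *Bicc1* and *Slc6a13*. Of the 6 dural genes, 5 exceeded 50 CPM and all 5 were at least 2-fold higher in Mgp-high cells. *Mgp* stood at 5276 CPM against 20.2 CPM, and *Fxyd5*, a regulator of the sodium pump, at 1268 CPM against 38.1 CPM. The 9 arachnoid genes above 50 CPM divided into 5 higher in Mgp-high cells (*Crabp2*, *Slc47a1*, *Cldn11*, *Cdh1* and *Klf5*) and 4 higher in Slc6a13-positive cells (*Aldh1a2*, *Wnt6*, *Ptgds* and *Angptl2*). *Slc6a13* and *Mgp* drew the split, and genes that follow them were measured in the same cells.

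Solute carriers differed between the sets in both directions. Of 10 on the list above 50 CPM, 6 were at least 2-fold higher in Slc6a13-positive cells: *Slc6a13*, which drew the split, *Slc22a6*, *Slc22a8*, *Slc13a3*, *Slc13a4* and the cystine carrier *Slc7a11*. The other 4, *Slc47a1*, *Slc26a7*, *Slc26a2* and the neutral amino acid carrier *Slc38a2*, were higher in Mgp-high cells, and none lay within 2-fold. Of the 23 genes of fibrillar collagens and their processing above 50 CPM, 14 lay within 2-fold between the sets. They include *Col1a1* and *Col1a2*, whose UMIs chose every member, so their likeness is partly set by the rule, as is that of *Dcn*. *Col1a1* stood at 2703 CPM in Mgp-high and 2598 CPM in Slc6a13-positive cells. *Dcn* stood at 2657 and 2418 CPM. The pooled Mgp-high level of *Col1a1* hid a wide spread, with 4199, 19687, 1970 and 1502 CPM in control replicates 1 and 2 and mutant replicates 1 and 2, of which the second value came from 1 cell.

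Basement membrane genes belonged largely to the Slc6a13-positive cells. Of 17 genes above 50 CPM, 14 were at least 2-fold higher there, 1 (*Lamb2*) was higher in Mgp-high cells and 2 lay within 2-fold. *Col4a1*, a chain of the type IV collagen network, stood at 2185 CPM in Slc6a13-positive and 182 CPM in Mgp-high cells. Within the Slc6a13-positive cells it stood at 1021, 4809, 1059 and 2939 CPM in control replicates 1 and 2 and mutant replicates 1 and 2. Both libraries of replicate 2 were above both of replicate 1. Among the elastic and adhesive matrix genes, *Fn1*, the gene of fibronectin, was at 1281 CPM in Mgp-high and 329 CPM in Slc6a13-positive cells, with 8 of 18 genes higher in the former and 6 in the latter.

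Signalling genes were shared out between the sets. In the retinoic acid pathway, 5 of 10 genes were at least 2-fold higher in Slc6a13-positive cells (the synthetic enzymes *Aldh1a1*, *Aldh1a2* and *Rdh10*, the carrier *Rbp4* and the degrading enzyme *Cyp26b1*), and 3 in Mgp-high cells (*Dhrs3*, *Stra6* and the binding protein *Crabp2*). Among BMP and TGF-beta genes, the ligands *Bmp6* and *Bmp7* were higher in Slc6a13-positive cells, while 6 genes, *Bmp4*, *Bmp5*, *Smad6*, *Id1*, *Tgfb2* and *Tgfb3*, were higher in Mgp-high cells. *Id1*, a target of BMP signalling, stood at 613 CPM in Mgp-high and 41.5 CPM in Slc6a13-positive cells. Of 12 Wnt genes, 5 were higher in Slc6a13-positive cells (the ligands *Wnt4*, *Wnt5a* and *Wnt6* and the targets *Lef1* and *Axin2*), 2 in Mgp-high cells (the receptor genes *Fzd1* and *Lrp6*), and 5 lay within 2-fold.

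Growth factors divided evenly, 7 of 16 each way. *Ptn*, the gene of the secreted factor pleiotrophin, stood at 13462 CPM in Slc6a13-positive and 1741 CPM in Mgp-high cells. *Igf2* stood at 3161 and 567 CPM, and *Cxcl12*, which guides migrating neurons and their progenitors, at 1564 and 239 CPM. In control replicate 2 the single Mgp-high cell had more *Igf2* (6739 CPM) than the Slc6a13-positive cells (5898 CPM). *Igf1*, *Igfbp5*, *Igfbp6*, *Igfbp7*, *Kitl* and *Il33* were among those higher in Mgp-high cells. Of the transcription factors of the mesenchyme, 8 of 18 were higher in Mgp-high cells, including *Foxp1* at 1327 against 276 CPM and *Foxd1* at 659 against 311 CPM, and 3 (*Tbx18*, *Osr1* and *Nr2f2*) in Slc6a13-positive cells. *Foxc1*, which the formation of the meninges requires, lay within 2-fold, at 393 CPM in Slc6a13-positive and 269 CPM in Mgp-high cells.

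Beyond the lists, the genes that led each set over the other were searched among those at 200 CPM or more and found in at least 50% of its cells. In Mgp-high cells *Slc4a10*, a sodium bicarbonate carrier, stood at 948 CPM and had no UMI in Slc6a13-positive cells, which makes it at least 282-fold higher with 3 UMIs over the set as the floor. It was followed by *Mgp*, the matricellular gene *Ccn3* (1857 against 10.1 CPM), *Tmeff2* (532 against 0 CPM), *Lypd2* and the Wnt-enhancing ligand *Rspo3*. In Slc6a13-positive cells *Vtn* led with 3753 against 6.57 CPM, followed by *Ptgds*, *Slc6a13* and the phospholipid transfer gene *Pltp*. *Vtn* had a UMI in 63 of 64 Slc6a13-positive cells, and its 3 UMIs in the Mgp-high cells came from 3 of 23 cells.

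The promoters of the first 2 leading genes of each set that RefSeq's promoter table holds (GRCm38.p6) are shown. *Mgp* and *Ccn3*, which stood ahead of *Tmeff2* among the leading genes, have no promoter there. Each stretch is the 250 bases before a RefSeq transcript start, 5′ to 3′ on the strand of the gene. GENCODE places the outermost start of each gene differently, so the stretches of *Ptgds* and *Tmeff2* lie inside the gene span and those of *Vtn* and *Slc4a10* overlap its first bases. *Slc4a10* has 2 starts in the table, of which the one nearest to the principal GENCODE start, 53 bases away, is shown. Capitals mark the core motif of forkhead factors, TGTTTA or its reverse complement TAAACA, since the forkhead genes *Foxc1* and *Foxd1* had a UMI in 87 and 80 of the 91 members. *Vtn* (chr11:78498870-78499119, + strand) and *Ptgds* (chr2:25469750-25469999, - strand) led in Slc6a13-positive cells. *Slc4a10* (chr2:62046265-62046514, + strand) and *Tmeff2* (chr1:50927273-50927522, + strand) led in Mgp-high cells.
Vtn: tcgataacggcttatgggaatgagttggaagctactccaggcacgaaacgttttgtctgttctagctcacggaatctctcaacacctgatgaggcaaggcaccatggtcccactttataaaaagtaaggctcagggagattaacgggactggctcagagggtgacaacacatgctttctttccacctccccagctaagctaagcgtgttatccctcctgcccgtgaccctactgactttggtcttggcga
Ptgds: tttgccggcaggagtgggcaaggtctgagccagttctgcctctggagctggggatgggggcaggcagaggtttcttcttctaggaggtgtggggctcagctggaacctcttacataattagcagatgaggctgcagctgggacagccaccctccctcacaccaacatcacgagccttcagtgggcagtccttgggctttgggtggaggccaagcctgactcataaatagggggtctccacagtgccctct
Slc4a10: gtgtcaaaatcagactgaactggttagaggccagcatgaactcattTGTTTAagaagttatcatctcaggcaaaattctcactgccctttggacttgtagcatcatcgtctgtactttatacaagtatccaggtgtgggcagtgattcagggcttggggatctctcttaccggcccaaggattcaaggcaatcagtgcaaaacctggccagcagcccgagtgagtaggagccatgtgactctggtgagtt
Tmeff2: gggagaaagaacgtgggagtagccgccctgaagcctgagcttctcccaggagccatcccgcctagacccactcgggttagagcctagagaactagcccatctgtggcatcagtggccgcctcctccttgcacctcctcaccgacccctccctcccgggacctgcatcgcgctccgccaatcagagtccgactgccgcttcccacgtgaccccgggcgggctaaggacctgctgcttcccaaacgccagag
The core was found once, in the *Slc4a10* stretch. Over the whole table, 12.0% of 32851 promoters held it in these 250 bases, and 13.5% of the genes had such a promoter. Of the 25 leading genes of each set, 2 of the 14 Mgp-high genes in the table and 2 of the 19 Slc6a13-positive genes in the table held it. A match is a stretch of letters and was not measured as a binding site.

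*Ptgds*, which encodes the prostaglandin D synthase of the leptomeninges (chr2:25466709-25470046), varied widely from cell to cell. Of 16072 *Ptgds* UMIs in the fibroblasts, 74.6% came from the 5 highest cells, and 45 of 91 cells had none. The highest cell held 3844 UMIs, and in 1 cell *Ptgds* made up 18.7% of all UMIs. Cells with 50 or more UMIs numbered 9 of 31 and 1 of 18 in control replicates 1 and 2, and 4 of 19 and 2 of 23 in mutant replicates 1 and 2. All 16 were Slc6a13-positive. The summed level was 17730, 484, 15015 and 2330 CPM in this order, so that both libraries of replicate 1 were above both of replicate 2 whatever the genotype.

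**Figure D3:**
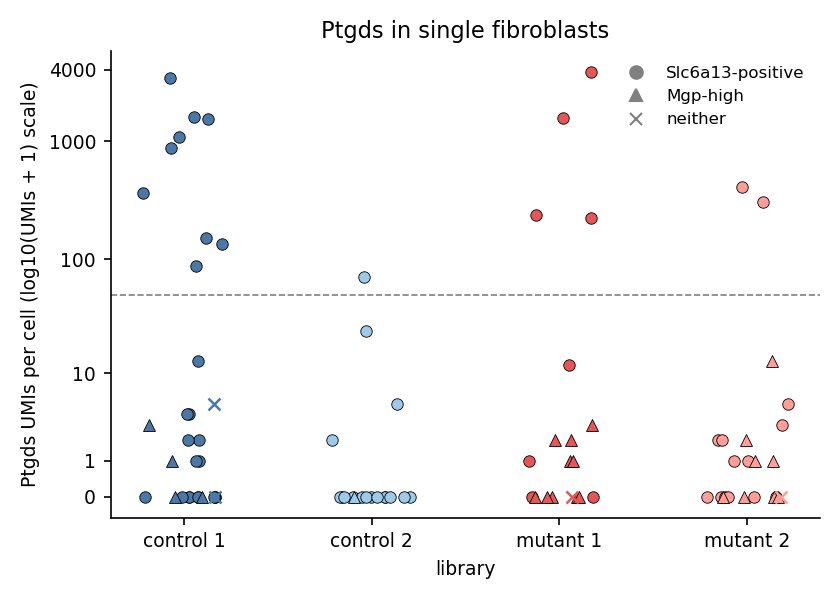
*Ptgds* UMIs in each fibroblast (vertical, log10(UMIs + 1) scale, with a sideways jitter) by library, with the set of the cell as the symbol. The dashed line marks 50 UMIs, which 16 cells reached, 13 of them in replicate 1, and all of them Slc6a13-positive.

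The 16 Slc6a13-positive cells with 50 or more *Ptgds* UMIs shared other genes, compared with the other 48 after *Ptgds* itself was taken out of the total. The transcription factor gene *Bnc2* was at 227 against at most 5.12 CPM, the level of 3 UMIs in the other cells, the organic cation carrier *Slc22a2* at 244 against 6.83 CPM, and the transcription factor gene *Prdm6* at 347 against 10.2 CPM. *Trpm3*, a cation channel gene, was at 11578 against 430 CPM and was found in 14 of 16 cells. The basement membrane genes *Col4a1* (536 against 3064 CPM) and *Col4a2* (364 against 1630 CPM) were lower. Over all Slc6a13-positive cells, *Col4a1* was also lower in the libraries of replicate 1 (1021 and 1059 CPM) than in those of replicate 2 (4809 and 2939 CPM). *Trpm3* stood at 5140 and 2987 CPM in the summed fibroblasts of control and mutant replicate 1 and at 61.7 and 6.21 CPM in those of replicate 2. The part of the software version in this gap was not tested. Of the 16 cells, 9 and 4 came from control and mutant replicate 1. They were chosen by a measured value, and the comparison has no test.

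Dividing cells were few. Cells with 10 or more UMIs of *Mki67* and *Top2a*, genes of proliferating cells, numbered 3, 0, 1 and 4 in control replicates 1 and 2 and mutant replicates 1 and 2. The 3 in control replicate 1 were Slc6a13-positive, whereas 4 of the 5 in the mutant libraries were Mgp-high and the fifth belonged to neither set. Of the 3 control cells, 1 also held 63 UMIs of the defining astrocyte markers and 8 of the oligodendrocyte lineage markers. The fifth mutant cell, from mutant replicate 2, held 24 *Mki67* and 61 *Top2a* UMIs among 39985 UMIs in all. The summed level of the 10 cell cycle genes was 445, 33.2, 460 and 1078 CPM. Both mutant libraries were above both controls, mutant replicate 1 only just above control replicate 1, with 1 dividing cell in the former and 3 in the latter.

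The first question of the genotype comparison was whether loss of 1 *Chd8* allele changed how many fibroblasts were recovered. Fibroblasts made up 0.543% of cells in control replicate 1 (95% interval 0.369% to 0.770%), 0.605% in control replicate 2 (0.359% to 0.955%), 0.336% in mutant replicate 1 (0.202% to 0.524%) and 0.701% in mutant replicate 2 (0.445% to 1.05%). The controls averaged 0.574% ± 0.0442 (SD, n = 2) and the mutants 0.518% ± 0.258 (SD, n = 2). The difference (mutant minus control) was -0.207 percentage points within replicate 1 and 0.0956 points within replicate 2, in opposite directions. With a mitochondrial limit of 5% it was -0.306 and -0.0852 points, lower in the mutants in both replicates (-0.196 on average, exact permutation p = 0.333), with 4 fibroblasts left in control replicate 2 and 5 in mutant replicate 2. Per non-neural cell it was -2.64 and -0.926 points (-1.78 on average, exact permutation p = 0.667). For the share of all cells, an exact two-sided permutation test over the 6 assignments of the libraries gave p = 1.0, where 0.333 is the smallest p this design allows. Without mutant replicate 1 the difference turned from -0.0558 to 0.127 percentage points. A sort fixed which cells were loaded, so these are shares of sorted cells. Mural cells numbered 51, 199, 93 and 271 in the same order, and fibroblasts per 100 mural cells 60.8, 9.05, 20.4 and 8.49.

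Mgp-high cells were 4 of 31 in control replicate 1 (12.9%, interval 3.63% to 29.8%) and 1 of 18 in control replicate 2 (5.56%, 0.141% to 27.3%). They were 10 of 19 in mutant replicate 1 (52.6%, 28.9% to 75.6%) and 8 of 23 in mutant replicate 2 (34.8%, 16.4% to 57.3%). Both mutant libraries were above both controls, within each software version as well. As a share of all cells, Mgp-high cells were 0.0701%, 0.0336%, 0.177% and 0.244%, and Slc6a13-positive cells 0.438%, 0.572%, 0.141% and 0.427%. The Mgp-high set was defined after these cells had been seen, so no test is given for it. Median depth of Mgp-high cells was 18486, 13207, 25468 and 15962 UMIs, and that of Slc6a13-positive cells 15620, 11340, 18764 and 7832 UMIs. The median mitochondrial share was 2.58%, 6.12%, 4.14% and 6.78% over all fibroblasts in this order. It was 2.76%, 5.48%, 5.09% and 6.03% in Mgp-high cells, and 2.72%, 6.22%, 3.37% and 7.20% in Slc6a13-positive cells.

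**Figure D4:**
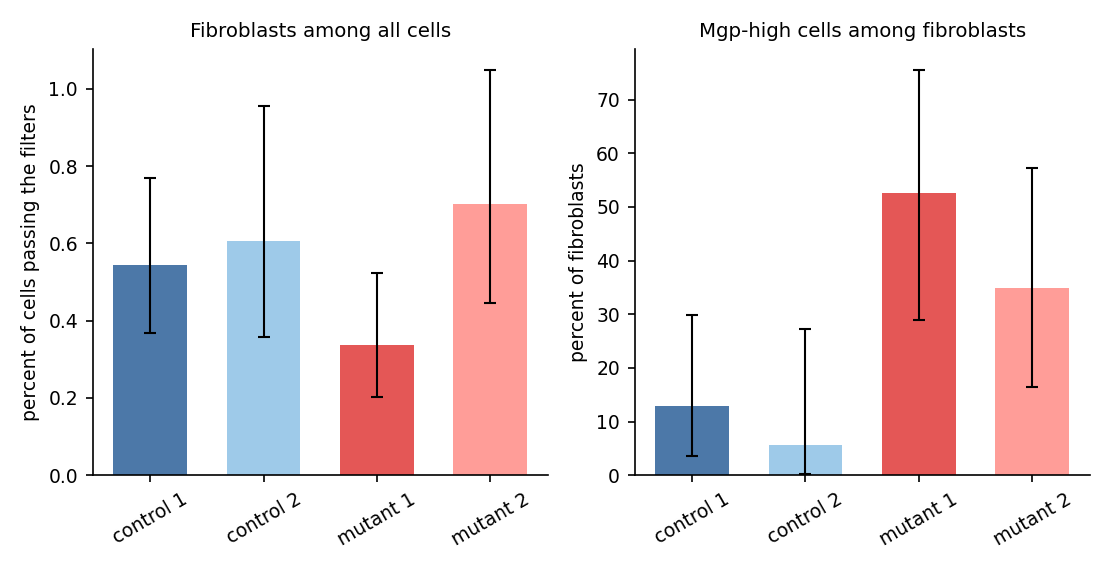
Share of fibroblasts among all cells that passed the filters (left) and share of Mgp-high cells among fibroblasts (right), in percent, for each library, with exact 95% binomial intervals as bars. The left shares lie between 0.336% and 0.701% with overlapping intervals; on the right both mutant libraries (52.6% and 34.8%) stand above both controls (12.9% and 5.56%).

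The targeted gene *Chd8*, which encodes a chromatin remodeller (chr14:52198151-52257780), stood at 32.4, 71.2, 43.2 and 52.8 CPM in control replicates 1 and 2 and mutant replicates 1 and 2. The genotypes overlapped, with both mutant libraries between the controls. The log2 change (mutant over control) was -0.01 ± 0.57 (SE), with an adjusted p of 0.9998 by edgeR's quasi-likelihood test. The UMIs mark mainly 3′ ends of transcripts, and their positions relative to the loxP-flanked exons were not examined. They therefore do not check the recombination.

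Across the genome, the edgeR fit with genotype alone called no gene in the fibroblasts. Of 6215 genes tested by edgeR on UMIs summed per library, 0 passed an adjusted p of 0.05 (0% called), and 254 had an unadjusted p under 0.05. DESeq2 called 3, *Mgp*, *Ccn3* and *Rspo3*, all higher in the mutants. With the replicate number as a block, which also takes up the software version and the sex-linked transcripts, 7 genes were called (0.113% of those tested), 6 higher in the mutants and 1 lower. Leaving out a library leaves 1 sample in an arm, which is then assumed to vary like the other genotype. The count under that assumption was 104 without control replicate 1, 11 without control replicate 2, 0 without mutant replicate 1 and 20 without mutant replicate 2. Without regard to any test, both mutant libraries were above both controls for 905 genes (14.6% of those tested) and below both for 1041 (16.7%).

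The 5 genes with the smallest p under the block were *Rgs5*, *Mgp*, *Ccn3*, *Rspo3* and *Serpinb1a*, and all 5 passed the threshold there. *Mgp* stood at 653, 161, 3872 and 1793 CPM in control replicates 1 and 2 and mutant replicates 1 and 2. Both mutant libraries were above both controls, and the log2 change was 2.84 ± 0.68 (SE). *Ccn3* stood at 224.6, 61.7, 1380 and 609 CPM, a log2 change of 2.80 ± 0.64. *Rspo3* (chr10:29452416-29535867) stood at 22.8, 0, 361 and 118 CPM, with no UMI in control replicate 2. *Serpinb1a*, a protease inhibitor gene, stood at 11.4, 4.75, 137 and 87.0 CPM, a log2 change of 3.62 ± 0.57. With the block the adjusted p by edgeR was 0.0109 for *Mgp*, 0.0138 for *Ccn3*, 0.0238 for *Rspo3* and 0.0436 for *Serpinb1a*. None of these 4 changes passed in the edgeR fit with genotype alone (adjusted p = 0.9998 each by edgeR's quasi-likelihood test). DESeq2 called 3 of them. With no filter on low counts edgeR called all 4, with an adjusted p of 4.21e-08 for *Mgp* and 2.11e-05 for *Serpinb1a*. It called 0 genes with no scaling, with 10 or more counts in every library and with the stricter gate given below. The adjusted p of *Mgp* by edgeR was 0.999, 0.976 and 0.998 in these 3 settings. With each library left out, the log2 change ranged from 2.16 to 4.11 for *Mgp*, from 2.08 to 3.98 for *Ccn3* and from 3.24 to 4.43 for *Serpinb1a*. For *Rspo3* it ranged more widely, from 3.03 to 9.21, against 4.08 with all libraries. Each of these 4 genes was highest without control replicate 1. *Rgs5* was the 1 gene lower in the mutants, at 53.3 and 726 CPM in the controls against 2.54 and 9.32 CPM, and its control level rested on the 2 cells named above.

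The leading genes of the sets are given by genotype as a description only, since they were chosen in pooled cells of unequal genotype: 18 of the 23 Mgp-high cells were mutant. Of the 25 leading genes of the Mgp-high cells, 19 were higher in both mutant libraries than in both controls and 0 were lower in both (14.6% and 16.7% over all genes tested). Their median log2 change was 2.17, against 0.00 over all genes tested. Of the 25 leading genes of the Slc6a13-positive cells, 0 were higher in both mutant libraries and 12 were lower in both, with a median of -0.58. Within the Mgp-high cells, *Mgp* stood at 4472 CPM (4 cells), 1969 CPM (1 cell), 6269 CPM (10 cells) and 4280 CPM (8 cells), and the genotypes overlapped.

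**Figure D5:**
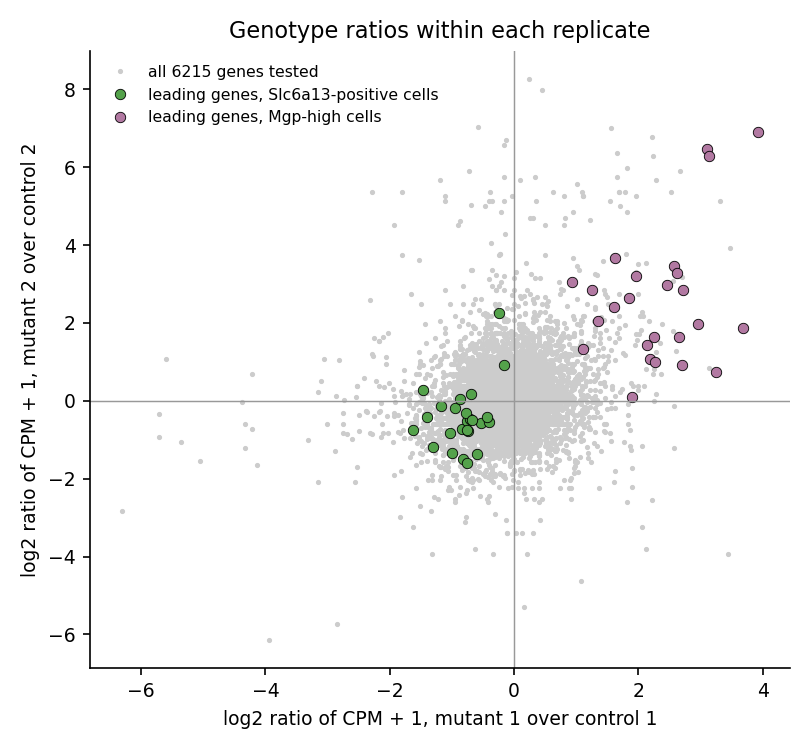
Log2 ratio of mutant over control CPM + 1 within replicate 1 (horizontal) and within replicate 2 (vertical) for the 6215 genes tested (grey), with the 25 leading genes of the Mgp-high cells in purple and of the Slc6a13-positive cells in green. All 25 purple genes lie above 0 in both replicates, and most green genes lie below 0 in both.

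The genotypes were also compared within the Slc6a13-positive cells alone, a setting added after the data had been seen, with mutant replicate 1 kept although it had fewer than 10 cells. Of 3407 genes tested there (25, 17, 8 and 14 cells), 0 passed and 29 had an unadjusted p under 0.05 by edgeR. The median log2 change of the 25 leading Slc6a13-positive genes moved from -0.58 in all fibroblasts to 0.41. *Slc6a13* changed by -0.56 ± 0.37 (SE) in all fibroblasts and by 0.47 in Slc6a13-positive cells, *Slc22a6* by -0.74 ± 0.32 and 0.33, and *Aldh1a2* by -0.55 ± 0.35 and 0.46, all on the log2 scale and none past the threshold. The Mgp-high cells were too few for a test of their own, with 1 cell in control replicate 2.

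By gene list, no list held a gene called in the edgeR fit with genotype alone, while DESeq2 called *Mgp* of the dural list. The block called *Mgp*, *Slc38a2* of the transporters and *Rgs5* of the mural list. All counts of genes higher or lower in both mutant libraries are to be read beside the shares over all genes tested, 14.6% higher and 16.7% lower. In the dural list, 5 of 6 genes were tested and all 5, among them *Mgp*, *Fxyd5*, *Smoc2* and *Six2*, were higher in both mutant libraries than in both controls, with a median log2 change of 1.86. *Fxyd5* stood at 194 and 190 CPM in the controls and 862 and 516 CPM in the mutants. In the pial list, 4 of 5 tested genes were lower in both mutant libraries and 0 higher in both, with a median of -1.05 in all fibroblasts and -0.13 within Slc6a13-positive cells. *S100a6* stood at 617, 1827, 287 and 730 CPM and was the pial gene whose genotypes overlapped. In the arachnoid list, 2 of 9 were higher and 2 lower, with a median of 0.91. Of 17 basement membrane genes, 8 were lower in both mutant libraries and 0 higher, with a median of -1.05 in all fibroblasts and -0.46 within Slc6a13-positive cells. Of 22 genes of fibrillar collagens and their processing, 8 were lower and 1 higher, with a median of -0.21. The share of Mgp-high cells, given above, differed between the same libraries, and its part in these list values was not tested.

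The remaining lists held medians between -0.65 and 0.25, apart from the 10 cell cycle genes (median 1.38 over 7 tested, with 4 higher and 0 lower in both mutant libraries and 0 called by edgeR) and lists of other cell types. Among 10 transporter genes tested, 3 were higher and 6 lower in both mutant libraries, and their median of -0.65 turned to 0.25 within Slc6a13-positive cells. *Slc38a2* stood at 560, 247, 1932 and 948 CPM and was called with the block (adjusted p = 0.0436 by edgeR). Among 12 retinoic acid genes 2 were higher and 4 lower, among 15 BMP and TGF-beta genes 4 were higher and 1 lower, and among 12 Wnt genes 2 were higher and 4 lower, beside 14.6% and 16.7% of all genes. *Igf2* stood at 1702, 5950, 1060 and 1808 CPM, with control replicate 2 apart from the rest.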

How the data were processed

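Single-cell RNA sequencing covered sorted tdTomato-positive cells in 4 libraries, 2 per genotype, grouped by the sample labels. The deposited matrices hold raw UMI counts per gene and barcode on mm10, made by the authors with Cell Ranger (version 3.0 in the submitters' processing notes, 7.0.0 or 5.0.1 per the file headers, of which the newest counts intronic reads by default). Barcodes were kept at 2000 to 40000 UMIs, 1000 or more genes and up to 10% mitochondrial UMIs. No doublet caller was run. Comparison classes had 5 or more raw UMIs of *Rgs5*, *Kcnj8* and *Abcc9* (mural), *Cldn5* (endothelial), *C1qa*, *C1qb* and *Csf1r* (macrophages) or *Gad1*, *Gad2*, *Dlx1* and *Dlx2* (inhibitory neurons). The first 3 classes also had fewer than 3 UMIs of *Dcn* and *Lum*.

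Fibroblast UMIs were summed per library, with 10 cells as the minimum. Genotype was tested with edgeR's quasi-likelihood method (edgeR 4.0.16, R 4.3.3) after filterByExpr and TMM scaling, with Benjamini-Hochberg adjustment over all genes tested and a threshold of 0.05. The procedure was tested on simulated counts with a fixed dispersion and no replicate effect. It was not tested with shared deviations of same-numbered replicates, which are given below. CPM are counts per 1e6 UMIs of the summed cells. Alternatives were DESeq2 1.42.0, no scaling, no filter, 10 or more counts in every library, a replicate block, a stricter gate (6 and 10 UMIs), a 5% mitochondrial limit, leaving out members with 3 or more UMIs of another cell type's defining markers, non-neural cells as the denominator, and leaving out each library. Fits on Slc6a13-positive cells, and without counting *Cdh5* among those markers, were added after the data had been seen.

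The members and lists were chosen with earlier results of these data known. The rule for named genes took the genes of the gate, *Cldn5*, *Chd8*, sex-linked genes, up to 4 members of each list by level, the layer lists, 20 leading genes, genes past the threshold (up to 10 each way) and the 5 with the smallest p under the block. Other genes were named after their values were seen. Positions came from GENCODE vM21 and promoters from RefSeq. Some genes that the rule takes are not reported here.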

Additional observations from a re-analysis of the deposited data

How the results depend on the processing

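The difference in the share of fibroblasts (mutant minus control, -0.0558 percentage points) ranged from -0.238 to 0.127 with each library left out. It was 0.0669 without members that held other cells' markers, 0.000701 when *Cdh5* was not counted among those markers, -0.196 with the 5% mitochondrial limit and -0.0383 with the stricter gate. The share of Slc6a13-positive cells, a set defined after the data had been seen, differed by -0.221 points. This difference was -0.296 points within replicate 1 and -0.145 points within replicate 2. Its exact permutation p was 0.333, which is a description only for a set chosen in this way. No setting can reach 0.05 in the exact permutation test. The number of genes called by genotype (0) was 7 with the replicate block, 3 with DESeq2, 101 with no filter on low counts, and 0 to 104 with each library left out, the highest without control replicate 1. The replicate numbers share only a number in the labels, and the deviations of control and mutant replicate 1 from their group means correlated at 0.582 over 3650 genes. With the block, the *Chd8* log2 change was 0.02.

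The *Chd8* change (-0.01) also had the other sign with no filter (0.01), with 10 or more counts in every library (0.13), with the 5% mitochondrial limit (0.49), without members holding other markers (0.87, or 0.42 with *Cdh5* not counted) and in Slc6a13-positive cells (0.05). It ranged from -0.60 to 0.67 with each library left out, and no tested setting called it. *Rgs5* turned to 1.02 without members holding other markers. In Slc6a13-positive cells *Slc6a13*, *Slc22a6* and *Aldh1a2* turned to 0.47, 0.33 and 0.46. *Dcn* turned to -0.03 with the mitochondrial limit, -0.22 without members holding other markers and -0.03 in Slc6a13-positive cells. The causes were not tested. Under the mitochondrial limit, control replicate 2 kept 4 cells and mutant replicate 2 kept 5. Control replicate 2 and mutant replicate 1 kept 6 cells each without members holding other markers. Both settings therefore compare 1 library with 1 and have no test, the former within replicate 1 and the latter control replicate 1 with mutant replicate 2, which also differ in software version and sex-linked transcripts. The depth of 18 to 31 cells per library limits the fit to genes of moderate level.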

Other observations

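Immediate early genes, which respond to stimulation and to tissue dissociation, differed widely between the Mgp-high cells of the libraries. *Fos* stood at 2134, 3180, 75.9 and 1577 CPM in the Mgp-high cells of control replicates 1 and 2 (4 cells and 1 cell) and mutant replicates 1 and 2 (10 and 8 cells). In the Slc6a13-positive cells it stood at 301, 1063, 1087 and 457 CPM. The 8 genes of the list summed to 6934, 11585, 650 and 3739 CPM in Mgp-high cells and to 856, 3473, 2842 and 2341 CPM in Slc6a13-positive cells. Over all fibroblasts none of the 8 was called by edgeR, 2 were lower in both mutant libraries and 0 were higher in both, beside 16.7% and 14.6% of all genes tested.

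Of the 12 imprinted genes above 50 CPM in a set, 5 were at least 2-fold higher in Slc6a13-positive cells (*Igf2*, *Peg3*, *Mest*, *Ndn* and *Nnat*) and 2 in Mgp-high cells (*H19* and *Plagl1*).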
